A study of Mus musculus with 36 samples.

Results

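The genes described here encode the mouse machinery of mitochondrial fusion, chosen by name as 8 members of the 21968 genes in the deposited table. They are the fusion GTPases Mfn1, Mfn2 and Opa1, the proteases Oma1 and Yme1l1, and the regulators Slc25a46, Pld6 and Mul1. Every one of the 8 was in the table and passed the filter on low counts, which left 12812 genes. They were read in single oocytes at the germinal vesicle stage, the stage before the first meiotic division resumes. The libraries labelled Drp1_KO came from 18 oocytes of 4 mice (a to d), and those labelled Drp1_WT from 18 oocytes of 5 mice (1 to 5). Drp1, encoded by Dnm1l, is the GTPase that divides mitochondria, and the comparison asks how transcripts differ in oocytes labelled as lacking it. The labels name no strain, age, treatment, Cre driver or deleted exon, and do not say whether controls carry a conditional allele.

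Mitochondria are shaped by the balance of fission and fusion. Fusion proceeds in 2 steps, in which mitofusins join the outer membranes and Opa1 then joins the inner membranes and holds the cristae. Opa1 is cut by proteases of the inner membrane, and mitofusins are removed by ubiquitin ligases. In the mouse, oocytes carry a very large number of small, round mitochondria, and the embryo inherits its mitochondria from them.

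Mfn1 (ENSMUSG00000027668) lies on the plus strand of chromosome 3, from 32529465 to 32579239 (GRCm38). Mfn2 (ENSMUSG00000029020) lies on the minus strand of chromosome 4, from 147873599 to 147904704. The mitofusins are paralogs, so it matters whether their reads can be told apart. Their coding sequences were identical at 67.8% of 2201 aligned bases. The longest identical run in that alignment was 21 bases and the next longest 18 bases. Reads were 100 bases long, and 0 of 6055 distinct windows of that length in Mfn1 transcripts and 0 of 5439 in Mfn2 transcripts occurred in any other annotated transcript, on either strand. The same count was 0 for Opa1, Oma1, Yme1l1, Pld6 and Mul1. In Slc25a46, 284 of 5326 windows (5.33%) overlap B930094E09Rik on the other strand, a gene with 0 counts over all 36 oocytes. The counting settings were not given, so whether reads in that overlap were counted for Slc25a46 is not known.

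Totals ran from 3178509 to 7406895 counts per oocyte, and each mouse gave 3 to 5 oocytes. The mouse was the replicate, and levels per mouse are counts per 1000000 of the library (CPM) with TMM factors, while levels per oocyte use its own total. CPM are shares of a library, so the amount of RNA per oocyte is not measured. Dnm1l, the gene the labels refer to, averaged 207 ± 15.8 CPM in mice labelled Drp1_KO (SD, n = 4) and 239 ± 69.2 CPM in mice labelled Drp1_WT (SD, n = 5), with a log2 fold change of -0.21 (edgeR adjusted p = 0.706). It was -0.47 without tubes 11 to 15 labelled Drp1_WT and -0.08 without tubes 27 to 30 (edgeR adjusted p = 0.519 and 0.918). Those tubes 11 to 15 (2 oocytes of mouse 3 and all 3 of mouse 4) held 116 to 156 CPM of Dnm1l. The other 13 libraries labelled Drp1_WT held 234 to 322 CPM, and those labelled Drp1_KO 144 to 274 CPM. Tubes 10, 13 and 14 labelled Drp1_KO, with 274, 240.5 and 251 CPM, lay within the range of those 13. In these libraries of both labels the level of Dnm1l did not sort with the label. The deleted exon is not named, so a count over the whole gene cannot show that a label is wrong. Every direction below follows the labels as given. Tube 10 of mouse b, labelled Drp1_KO, stood apart: 12 oocyte markers summed to 4427 CPM there and to at least 20514 CPM in the other 35 libraries. The markers fell unevenly. Oosp1 stood at 3273 CPM in that tube, within the range of the others (1403 to 3985 CPM). Zp1, Zp3 and Mos stood at 13.5, 13.5 and 2.45 CPM, against at least 408, 1814 and 609 CPM. A list of 13 markers of stromal, endothelial, epithelial and immune cells summed to 561 CPM in that tube and to at most 73.1 CPM elsewhere. In that tube 6 of the 13 were at 0 (Col1a1, Col1a2, Pdgfra, Cdh5, Krt8 and Krt18). Cd68 stood at 67.8 CPM there, against 0.963 to 7.56 CPM in the other 35, and Kdr at 1.63 CPM, against 0 to 4.97 CPM. Both were named by smallest p between the labels, not by level in that tube. They make up a small part of the 561 CPM. Most of that sum came from other genes of the list, whose levels are not given here. Sums over all libraries of a label ran from 30.7 to 561 CPM (Drp1_KO) and from 28.5 to 73.1 CPM (Drp1_WT) for that list, with Cdh5 at 0 in all 36 and Col1a2 at 0 in all labelled Drp1_KO. For 16 granulosa and cumulus markers they ran from 79.2 to 151 CPM (Drp1_KO) and from 91.5 to 158 CPM (Drp1_WT). The 151 CPM is tube 10, and the other libraries labelled Drp1_KO reached at most 142 CPM. Cyp19a1 averaged 67.4 CPM in mice labelled Drp1_KO and 57.1 CPM in mice labelled Drp1_WT. Cyp11a1 (1.40 and 4.63 CPM), Hsd3b1 (2.31 and 5.79 CPM) and Fshr (2.92 and 4.44 CPM) went the other way. Of the 11 markers tested, 3 had a log2 fold change above 0 and 8 below. The median log2 fold change of the tested markers was -0.43 for the granulosa and cumulus list (11 genes) and -0.11 for the other one (6 genes). The part of other cells in the results on fusion genes was not tested.

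The fusion genes spanned a wide range of levels, led by the protease Oma1, with Mfn1 far above its paralog Mfn2. Compared per length, as CPM per kb of exon and averaged over the 9 mice, Oma1 stood at 42.2 ± 4.53, Mfn1 at 12.2 ± 1.97 and Mul1 at 11.1 ± 1.06. Opa1 followed at 5.77 ± 0.510 and Yme1l1 at 2.92 ± 0.285 CPM per kb. Mfn2, Slc25a46 and Pld6 were lowest, at 1.03 ± 0.266, 0.630 ± 0.140 and 0.521 ± 0.147 CPM per kb (all SD, n = 9). Among 12800 tested genes with a known length, 88.9% were below Oma1 on this scale, 72.97% below Mfn1, 60.1% below Opa1, 30.6% below Mfn2 and 19.6% below Pld6.

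Each step of this order was tested over the 9 mice with an exact two-sided sign-flip permutation test of the log2 level per kb, adjusted over the 7 neighbouring pairs. The order was set by the means of the same 9 mice, so the pairs and their direction come from the values tested. The p-values measure the spread between mice and not any error in the lengths. Oma1 exceeded Mfn1 by 3.47-fold, Mul1 exceeded Opa1 by 1.93-fold, Opa1 exceeded Yme1l1 by 1.98-fold and Yme1l1 exceeded Mfn2 by 2.91-fold. These 4 steps held in 9 of 9 mice, each with an exact p of 0.00391, the smallest that 9 mice allow (adjusted 0.00684). Mfn2 exceeded Slc25a46 by 1.62-fold in 8 of 9 mice (exact permutation p = 0.00781, adjusted 0.0109). Mfn1 and Mul1 did not differ past the threshold, at 1.09-fold in 6 of 9 mice (exact permutation p = 0.152, adjusted 0.152). Neither did Slc25a46 and Pld6, at 1.24-fold in 8 of 9 mice (exact permutation p = 0.0664, adjusted 0.0775). With the longest transcript as the length in place of all exons, the same order was found and all 7 steps passed, Mfn1 over Mul1 by 1.44-fold and Slc25a46 over Pld6 by 1.53-fold (exact permutation, adjusted p = 0.00547 and 0.00781).

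**Figure D1:**
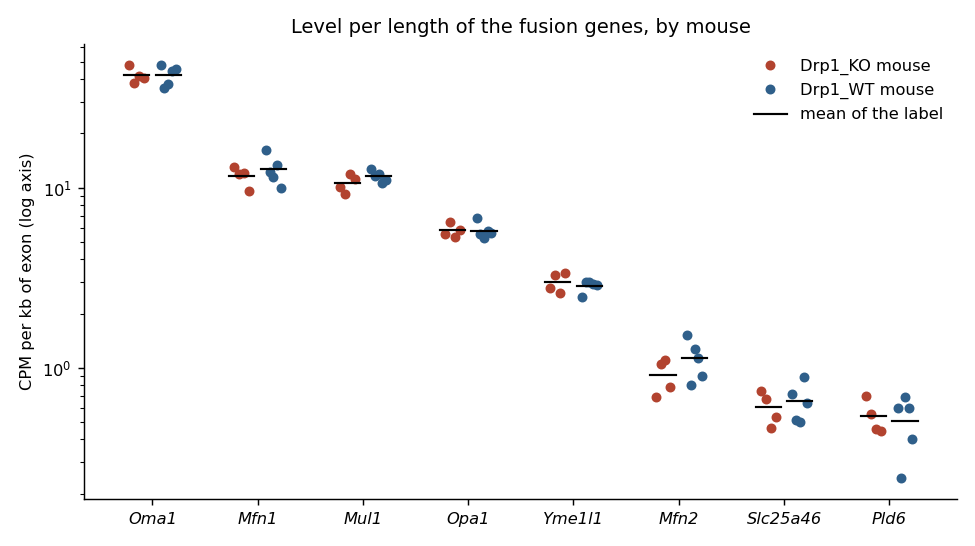
Level of each fusion gene in CPM per kb of exon on a log axis, with 1 point per mouse, the 4 mice labelled Drp1_KO left of the 5 labelled Drp1_WT, and a line at the mean of each label. Oma1 stands at 35.8 to 48.1 and Pld6 at 0.244 to 0.695 CPM per kb, and within each gene the points of both labels overlap.

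Mfn1 and Mfn2 encode the outer membrane GTPases that tether and fuse neighbouring mitochondria, and Mfn2 is also known at contacts with the endoplasmic reticulum. Mfn1 stood at 79.9, 72.9, 73.4 and 58.3 CPM in mice a to d, labelled Drp1_KO, and at 99.3, 75.02, 70.3, 81.7 and 60.98 CPM in mice 1 to 5, labelled Drp1_WT. The labels overlapped, and the lowest mouse of each label, d and 5, is the one from tubes 27 to 30. Its log2 fold change, Drp1_KO over Drp1_WT, was -0.12 (SE 0.15, 95% interval -0.44 to 0.19, edgeR adjusted p = 0.760). Mfn2 stood at 3.58, 5.46, 5.73 and 4.08 CPM in mice a to d and at 7.92, 4.18, 6.64, 5.87 and 4.65 CPM in mice 1 to 5. Mouse 1 was highest and mouse a lowest, and the ranges of the labels overlapped. Its log2 fold change was -0.31 (SE 0.23, 95% interval -0.80 to 0.18, edgeR adjusted p = 0.628), the largest in size of the 8, and the interval reaches from 0.575-fold to 1.14-fold.

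The ratio of the mitofusins does not depend on the library total. Per kb, Mfn1 exceeded Mfn2 by 19.0-, 11.3-, 10.9- and 12.1-fold in mice a to d, labelled Drp1_KO. In mice 1 to 5, labelled Drp1_WT, it did so by 10.7-, 15.3-, 8.99-, 11.8- and 11.1-fold. The means were 13.3 ± 3.80 in mice labelled Drp1_KO and 11.6 ± 2.31 in mice labelled Drp1_WT (SD, n = 4 and 5). The 2 ranges overlapped, with mouse a above all others.

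Opa1 (ENSMUSG00000038084), the GTPase of the inner membrane, lies on chromosome 16 from 29579334 to 29654884 and was among the least variable of the members. It stood at 43.4, 50.9, 42.02 and 46.01 CPM in mice a to d, labelled Drp1_KO, and at 53.1, 43.6, 41.2, 45.1 and 43.8 CPM in mice 1 to 5, labelled Drp1_WT. Both labels spanned nearly the same range, and the 2 means were 45.6 ± 3.91 and 45.4 ± 4.56 CPM (SD, n = 4 and 5). The fitted log2 fold change was 0.01 (SE 0.11, edgeR adjusted p = 0.988), with a 95% interval from -0.24 to 0.25, or 0.847-fold to 1.19-fold.

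Oma1 and Yme1l1 encode the proteases that cut Opa1 at separate sites, Oma1 mainly under stress. Oma1 (ENSMUSG00000035069) lies on chromosome 4 from 103313812 to 103371868 and Yme1l1 (ENSMUSG00000026775) on chromosome 2 from 23156369 to 23199260. Oma1 stood at 102, 81.7, 89.8 and 86.8 CPM in mice a to d, labelled Drp1_KO, and at 103, 76.7, 80.5, 95.2 and 97.4 CPM in mice 1 to 5, labelled Drp1_WT. A log2 fold change of -0.01 was fitted (SE 0.12, 95% interval -0.26 to 0.25, edgeR adjusted p = 0.987). Mice of both labels were interleaved. Yme1l1 stood at 22.1, 26.3, 20.8 and 26.9 CPM in mice a to d and at 19.9, 23.8, 24.0, 23.4 and 22.9 CPM in mice 1 to 5. Its log2 fold change was 0.07 (SE 0.13, 95% interval -0.20 to 0.35, edgeR adjusted p = 0.839). Mouse b contains tube 10, and without that library the estimate was -0.00 (edgeR adjusted p = 0.998).

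Mul1 (ENSMUSG00000041241, chromosome 4, 138434671 to 138442265) encodes a ubiquitin ligase of the outer membrane known to act on Mfn2. It stood at 40.3, 37.0, 47.4 and 44.4 CPM in mice a to d, labelled Drp1_KO, and at 50.9, 46.7, 47.7, 42.4 and 43.9 CPM in mice 1 to 5, labelled Drp1_WT. Mice a and b lay below every mouse labelled Drp1_WT, while c and d lay within their range. Its log2 fold change was -0.13 (SE 0.11, 95% interval -0.38 to 0.11, edgeR adjusted p = 0.681), and -0.09 without tube 10 of mouse b. In limma-voom on single oocytes it was -0.38 (SE 0.35, adjusted p = 0.716). That fit includes tube 10 of mouse b, with 1 read of Mul1, and was not run without it.

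Slc25a46 encodes an outer membrane protein of the carrier family that binds fusion proteins, and Pld6 a phospholipase of the mitochondrial surface that aids fusion. Slc25a46 (ENSMUSG00000024259) lies on chromosome 18 from 31556111 to 31609911, and Pld6 (ENSMUSG00000043648) on chromosome 11 from 59783897 to 59787645. Both were scarce. Slc25a46 stood at 4.06, 3.65, 2.50 and 2.90 CPM in mice a to d, labelled Drp1_KO, and at 3.88, 2.78, 2.73, 4.82 and 3.44 CPM in mice 1 to 5, labelled Drp1_WT. Mouse c was lowest and mouse 4, from tubes 13 to 15, highest. Its log2 fold change was -0.10 (SE 0.23, 95% interval -0.61 to 0.40, edgeR adjusted p = 0.884), and it was 0.12 without tubes 11 to 15 labelled Drp1_WT (edgeR adjusted p = 0.963). Pld6 averaged 0.948 ± 0.201 CPM in mice labelled Drp1_KO and 0.890 ± 0.318 CPM in mice labelled Drp1_WT (SD, n = 4 and 5). It was counted in 17 of 18 libraries labelled Drp1_KO, at 0 to 10 reads, and in 18 of 18 labelled Drp1_WT, at 1 to 15 reads. Its 95% interval, from 0.629-fold to 1.78-fold, was the widest of the 8 (log2 fold change 0.08, SE 0.35, edgeR adjusted p = 0.942).

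Of the 8 fusion genes, 0 passed an adjusted p of 0.05 by edgeR, DESeq2 or limma-voom, and 0 had an unadjusted p under 0.05 by any of them. Over all genes edgeR called 2 (0.0156%), DESeq2 43 (0.35%) and limma-voom 10 (0.0781%), and 9.69% had an unadjusted edgeR p under 0.05. None of the 8 had mouse values that did not overlap between the labels, against 2.56% of all genes tested. The median log2 fold change of the 8 was -0.05, beside -0.00 for all genes tested, with 3 above 0 and 5 below. Within tubes 1 to 15, with 3 mice labelled Drp1_KO and 4 labelled Drp1_WT, the log2 fold changes were -0.11 for Mfn1, -0.31 for Mfn2, -0.01 for Opa1 and -0.17 for Mul1 (edgeR adjusted p from 0.652 to 0.988 for these 4). They were 0.04 for Oma1, 0.02 for Yme1l1, -0.05 for Slc25a46 and 0.08 for Pld6 (edgeR adjusted p from 0.925 to 0.969). Tubes 27 to 30 hold 1 mouse of each label and give no test of their own.

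**Figure D2:**
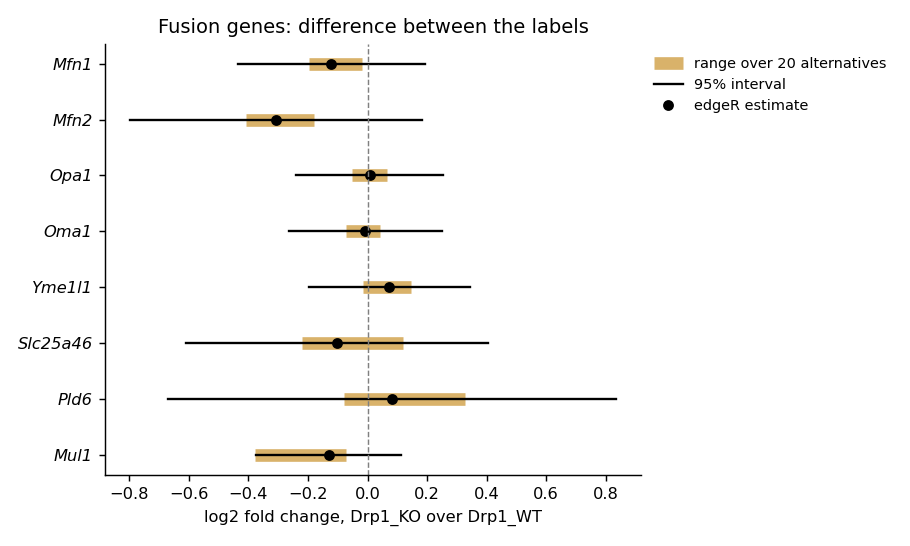
Log2 fold change of each fusion gene, mice labelled Drp1_KO over mice labelled Drp1_WT, with the edgeR estimate as a point, its 95% interval as a black line and the range over 20 alternative settings as a band. All 8 intervals contain 0, the narrowest for Mul1, Opa1 and Oma1 and the widest for Pld6, from -0.67 to 0.84.

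The members also differed in how much they varied among the 36 oocytes, with both labels and all 9 mice pooled. Differences between mice are part of this spread, and the spread within mice was not computed. Over the 9 mouse values the coefficient of variation was 16.2% for Mfn1, 25.9% for Mfn2 and 8.84% for Opa1. Across the 36 oocytes Opa1 had a coefficient of variation of 16.03% and Yme1l1 19.0%, where counting error alone gives 6.14% and 8.53%. Mfn1 varied by 25.1%, about the same as Mul1 (25.2%), against a counting error of 4.81% for Mfn1 and 6.20% for Mul1. Mfn2 varied by 41.0%, Slc25a46 by 37.4% and Pld6 by 60.9%, with larger counting errors of 17.8%, 22.5% and 42.9%. Oma1 varied by 20.1%. Without tube 10 of mouse b the coefficients of variation were 13.9% for Yme1l1, 15.3% for Oma1, 15.97% for Opa1 and 18.3% for Mul1, so the order of these 4 rests on that library. Counting errors assume independent reads, and PCR copies may make them too small.

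**Figure D3:**
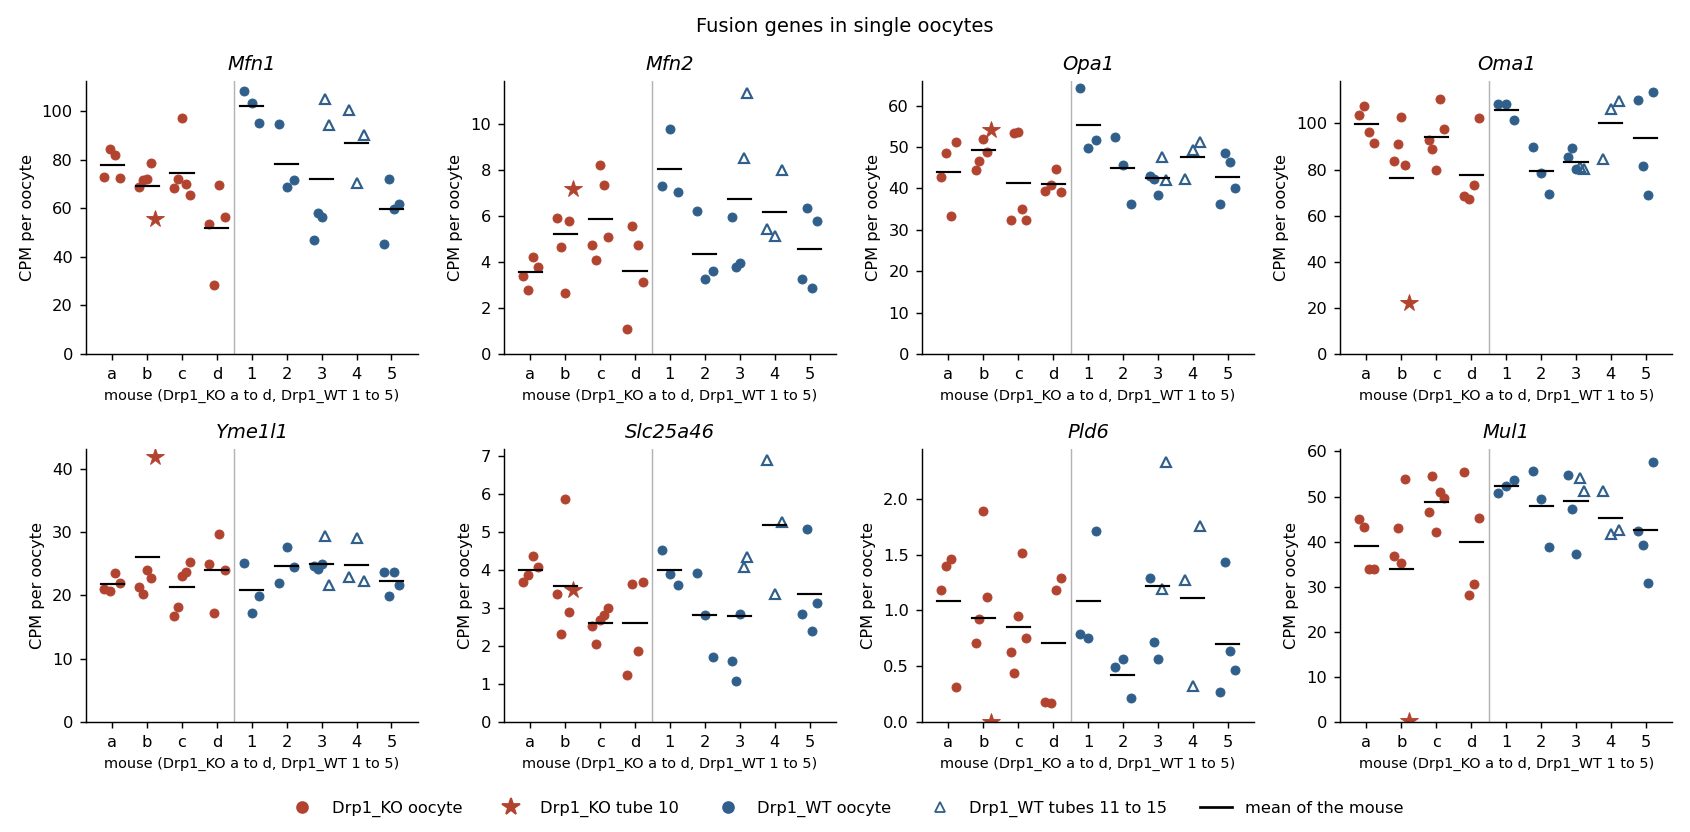
CPM of each fusion gene in single oocytes, 1 panel per gene, with the mice labelled Drp1_KO (a to d) left of those labelled Drp1_WT (1 to 5) and a line at the mean of each mouse. Mul1 and Oma1 of tube 10 (star) lie far below the other oocytes, at 0.204 and 22.1 CPM, and its Yme1l1 lies above them at 41.9 CPM.

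Mfn1 ranged from 28.4 to 97.0 CPM (median 70.8) in the 18 oocytes labelled Drp1_KO and from 45.5 to 108 CPM (median 71.8) in the 18 labelled Drp1_WT. The lowest value was tube 28 of mouse d. Within mouse 3, labelled Drp1_WT, tubes 11 and 12, which held little Dnm1l, stood at 105 and 94.5 CPM of Mfn1, and tubes 7, 8 and 10 at 46.8, 58.1 and 56.4 CPM. All 5 of the tubes 11 to 15 ranged from 70.5 to 105 CPM (median 94.5), within the span of the other 13 oocytes labelled Drp1_WT, 45.5 to 108 CPM (median 68.6). Mfn2 ranged from 5.14 to 11.3 CPM (median 7.97) in those 5 tubes and from 2.88 to 9.76 CPM (median 5.79) in the other 13. Opa1 ranged from 41.9 to 51.2 CPM in those 5 tubes and from 36.2 to 64.3 CPM in the other 13. Without tubes 11 to 15 the log2 fold changes of Mfn1, Mfn2 and Opa1 were -0.04, -0.20 and -0.02 (edgeR adjusted p from 0.925 to 0.991).

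Tube 10 of mouse b changed the members unevenly. Mul1 had 1 read there, or 0.204 CPM (95% exact binomial interval 0.00517 to 1.14 CPM, counting error only), against 28.3 to 57.7 CPM in the other 35 oocytes. Oma1 stood at 22.1 CPM (18.1 to 26.6 CPM) against 67.1 to 114 CPM, and Yme1l1 at 41.9 CPM (36.4 to 48.04 CPM) against 16.7 to 29.7 CPM. Pld6 had 0 of 4893482 counts, which allows up to 0.613 CPM if the limit is set at 3 counts and 0.754 CPM by the exact binomial interval. Both are above the lowest of the others (0.173 CPM). Mfn1, Mfn2, Opa1 and Slc25a46 stood at 55.6, 7.15, 54.2 and 3.47 CPM, each within the range of the other 35 oocytes. In that library 3 of the 8 members, Mul1, Oma1 and Yme1l1, lay outside the range of all others, as did 53.4% of all genes tested, with counts of 0 set at 3 counts.

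Among the 36 oocytes Mfn1 moved together with several other members. Spearman's rho of log2(CPM + 1) was 0.59 between Mfn1 and Slc25a46, 0.51 between Mfn1 and Opa1, 0.49 between Mfn1 and Pld6 and 0.47 between Mfn1 and Mfn2. Over all 28 pairs it ran from -0.24 (Mfn1 and Yme1l1) to that highest value. Yme1l1 had a negative rho with each of the other 7 members, from -0.24 to -0.06. These values describe oocytes that share mice, with libraries of unequal depth. Mfn1 itself most resembled Nek2, a centrosomal kinase (rho = 0.92), Hspa9, the mitochondrial chaperone mortalin (0.91), and Dis3l, a ribonuclease of the exosome (0.90), where the median over all tested genes was 0.18. These 3 also led when tube 10 of mouse b was left out, at 0.92, 0.90 and 0.89.

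The genes most like Mfn2 were Ovol1, a zinc finger factor (rho = 0.73), Bcat1, a cytosolic aminotransferase (0.71), and Pptc7, a mitochondrial phosphatase (0.69). Those most like Opa1 were Wdr43, a nucleolar protein of ribosome assembly (0.73), Ywhab, a 14-3-3 protein (0.68), and Setd6, a lysine methyltransferase (0.67). Over all tested genes the median rho was 0.12 with Mfn2 and 0.05 with Opa1. Ovol1 was scarce, at 0.405 to 5.11 CPM per oocyte. Without tube 10 of mouse b only Wdr43 of these 6 genes stayed among the first 3 of its member. The others kept a rho of 0.64 to 0.72 but ranked from 5 to 30, so their place in these lists is not firm.

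**Figure D4:**
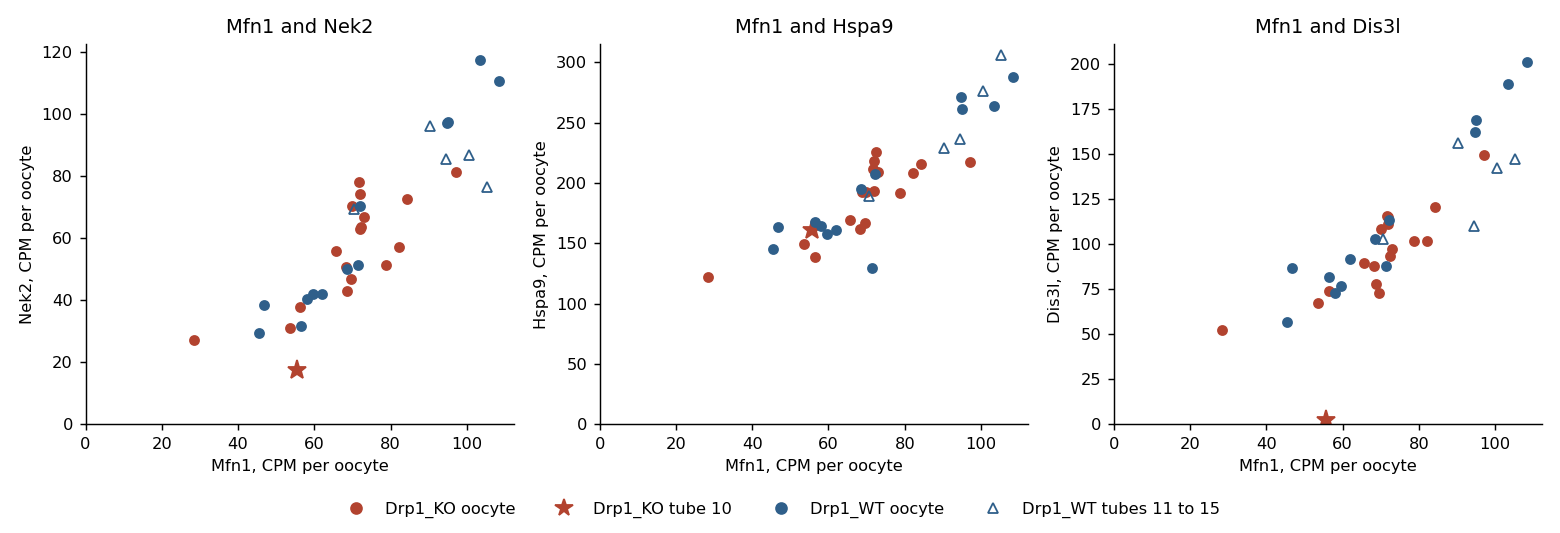
CPM of Nek2, Hspa9 and Dis3l against CPM of Mfn1, 1 point per oocyte, for 18 oocytes labelled Drp1_KO and 18 labelled Drp1_WT. Oocytes of both labels follow a common rise, and tube 10 of mouse b (star) lies at 2.66 CPM of Dis3l.

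Among 47 tested genes of 5 related lists, 0 passed an adjusted p of 0.05 by edgeR or DESeq2 and 1, Prelid1, did by limma-voom, while 6, 6 and 10 had an unadjusted p under 0.05 by these tools. Of all genes tested, 9.69%, 11% and 9.9% did so. Of 22 partners and regulators of fusion 19 were tested, of which 3 had an unadjusted edgeR p under 0.05, 1 higher and 2 lower. Their median log2 fold change was -0.11, with 4 above and 15 below 0, where 50.6% of all genes tested were below 0. Usp30, a deubiquitinase of the outer membrane, stood at 73.6 ± 10.1 CPM in mice labelled Drp1_KO and 91.2 ± 13.8 CPM in mice labelled Drp1_WT (log2 -0.31, SE 0.13, edgeR adjusted p = 0.508). In the same order of labels Afg3l2, a subunit of an inner membrane protease that faces the matrix, stood at 44.7 ± 6.52 and 58.8 ± 15.7 CPM (log2 -0.39, edgeR adjusted p = 0.508). Chchd3, a cristae protein, stood at 112.6 ± 6.90 and 96.2 ± 8.54 CPM (log2 0.23, edgeR adjusted p = 0.508), again in that order. Phb, a prohibitin, stood at 34.98 ± 3.03 CPM in mice labelled Drp1_KO and 40.3 ± 4.35 CPM in mice labelled Drp1_WT (SD, n = 4 and 5 throughout).

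Of 13 fission genes 10 were tested, with 0 at an unadjusted edgeR p under 0.05 and a median of 0.00. The smallest p belonged to Dnm2, a dynamin of endocytosis, at 24.7 ± 7.35 CPM in mice labelled Drp1_KO and 33.4 ± 12.3 CPM in mice labelled Drp1_WT. Gdap1, an outer membrane protein linked to fission, stood at 169 ± 35.5 and 144 ± 19.2 CPM (log2 0.23, edgeR adjusted p = 0.578) in the same order, with 497 CPM in tube 10 of mouse b. Without that tube its log2 fold change was 0.07. Mief1, an adaptor that binds Drp1, stood at 28.3 ± 3.69 CPM in mice labelled Drp1_KO and 32.0 ± 6.10 CPM in mice labelled Drp1_WT, with log2 fold changes of -0.17 and, without tubes 11 to 15 labelled Drp1_WT, -0.08.

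The 4 genes of mitochondrial transport were all tested, with 1 lower at an unadjusted edgeR p under 0.05 and a median of -0.10. This was Rhot1, the outer membrane GTPase Miro1, at 170.4 ± 22.3 CPM in mice labelled Drp1_KO and 208 ± 33.3 CPM in mice labelled Drp1_WT (log2 -0.29, edgeR adjusted p = 0.509). Rhot2, Trak1 and Trak2 had log2 fold changes of -0.07, -0.10 and -0.10 (edgeR adjusted p from 0.784 to 0.896). Of 7 tested genes that supply cardiolipin, the lipid Opa1 binds, 1 was higher at an unadjusted edgeR p under 0.05, and the median was 0.05. Prelid1, which carries its precursor between the membranes, stood at 30.2 ± 5.72 CPM in mice labelled Drp1_KO (26.4 to 38.5) and 14.6 ± 6.67 CPM in mice labelled Drp1_WT (7.18 to 24.1). The labels did not overlap, as was the case for 2.56% of all genes tested. The log2 fold change of Prelid1 was 1.04 (SE 0.28, unadjusted p = 0.00257, adjusted p = 0.471 by edgeR), while limma-voom on single oocytes gave 1.28 (adjusted p = 0.0276). Without tubes 11 to 15 labelled Drp1_WT it was 0.69 (edgeR adjusted p = 0.774). Pgs1, an earlier enzyme of that route, stood at 125 ± 29.8 and 166 ± 49.3 CPM in the same order of labels. Crls1, which makes cardiolipin, stood at 15.1 ± 3.95 CPM in mice labelled Drp1_KO and 12.6 ± 3.59 CPM in mice labelled Drp1_WT, and Triap1, the partner of Prelid1, at 170.3 ± 35.6 and 150.0 ± 26.4 CPM. Without tubes 11 to 15 labelled Drp1_WT the log2 fold changes were -0.23 against -0.41 with them for Pgs1, 0.66 against 0.27 for Crls1 and 0.04 against 0.18 for Triap1.

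Of 8 transcription factors and coactivators of mitochondrial genes 7 were tested, with 1 lower at an unadjusted edgeR p under 0.05 and a median of -0.05. Ppargc1b, a coactivator, stood at 5.28 ± 0.610 CPM in mice labelled Drp1_KO and 7.20 ± 1.64 CPM in mice labelled Drp1_WT (log2 -0.45, edgeR adjusted p = 0.508). Ppargc1a, its better known relative, was scarce, at 0.369 ± 0.177 and 0.695 ± 0.202 CPM in the same order, and Pprc1, a further relative, at 2.88 ± 0.635 and 2.14 ± 0.532 CPM. Tfam, which packs mitochondrial DNA, stood at 16.5 ± 3.00 CPM in mice labelled Drp1_KO and 19.8 ± 3.48 CPM in mice labelled Drp1_WT (log2 -0.26, edgeR adjusted p = 0.583), and its log2 fold change was -0.02 without tubes 11 to 15 labelled Drp1_WT.

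**Figure D5:**
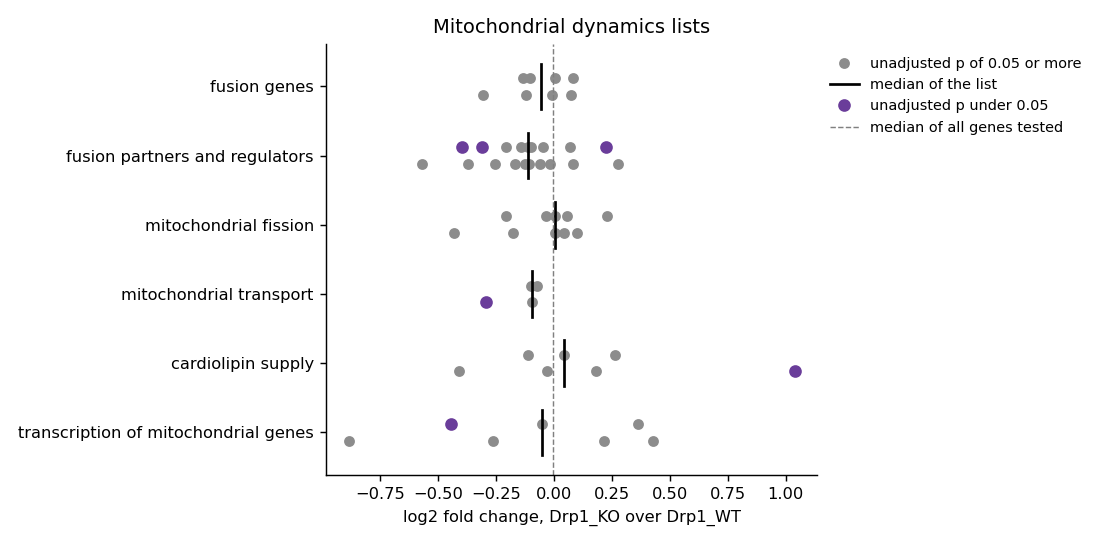
Log2 fold change of each tested gene, mice labelled Drp1_KO over mice labelled Drp1_WT, for the fusion genes and 5 lists of related genes, with a line at the median of each list and a dashed line at that of all genes tested. Prelid1, at 1.04, lies farthest to the right, and the 8 fusion genes lie between -0.31 and 0.08.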

How the data were processed

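Per the labels' protocols, single oocytes were lysed, reverse transcribed with a SMARTer Ultra Low Input kit, made into Nextera XT libraries and sequenced as single reads of 100 bases. The authors deposited raw counts per Ensembl gene and oocyte. GRCm38, Picard, featureCounts, Subread 1.5.2 and STAR are named in the submitters' processing notes, which were given here without settings. These kits do not mark strand. The p-values of edgeR, DESeq2 and the permutation tests measure the spread between mice. Those of limma-voom come from single oocytes, with a correlation within mice shared by all genes. They do not rest on the spread between mice alone.

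IDs were named from GENCODE M21, which matched 21876 of 21968, and exon lengths and sequences come from it. Counts were summed per mouse and tested with edgeR 4.0.16 (TMM, filter by genotype, robust quasi-likelihood, Benjamini-Hochberg over 12812 genes, common coefficient of variation 0.214); DESeq2 1.42.0 (Wald test) and limma 3.58.1 (voom on oocytes, mouse as random effect) were alternatives. Intervals use the SE and the moderated degrees of freedom. Permutation tests used scipy 1.17.1. Scripts were tested on simulated data.

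The members and lists were chosen with earlier results of these data known. Besides the members, Dnm1l and markers at 0, the text names up to 4 genes per list by smallest p, and the 3 genes most like each GTPase. The list gene Ptpmt1 was not analysed here. Markers served as checks: of 12 oocyte, 11 granulosa and 6 other markers tested, edgeR called 0, and 1, 1 and 3 had an unadjusted p under 0.05. Of all genes tested, edgeR called 0.0156%, and 9.69% had an unadjusted p under 0.05. The 3 other markers were Cd68 (log2 fold change 1.39), Krt8 (-1.84) and Kdr (-0.97). Totals of 3178509 to 7406895 counts per oocyte limit Pld6, Slc25a46 and Mfn2.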

Additional observations from a re-analysis of the deposited data

Results flagged for a closer look

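In 5 of 64 groups of mice, 1 mouse lay far from the rest of its label (Dixon's gap ratio past its 95% limit), which chance alone does in about 1 in 20 groups. Yme1l1 stood at 19.9 CPM in mouse 1, labelled Drp1_WT, where the other 4 mice of that label lay between 22.9 and 24.0 CPM. The Mfn1 to Mfn2 ratio per kb was 19.0 in mouse a, labelled Drp1_KO, and 10.9 to 12.1 in the other 3. The Opa1 to Mfn1 ratio per kb was 0.558 in mouse 5, labelled Drp1_WT, from tubes 27 to 30, and 0.415 to 0.455 in the other 4. Gdap1 stood at 221 CPM in mouse b, labelled Drp1_KO, which contains tube 10, and at 147 to 157 CPM in the other 3. Chchd3 stood at 111 CPM in mouse 5, labelled Drp1_WT, and at 89.3 to 95.1 CPM in the other 4.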

How the results depend on the processing

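No fusion gene passed an adjusted p of 0.05 under any of 20 alternatives, with adjusted p from 0.430 to 0.998. Over all genes the count of 2 became 43 with DESeq2, 10 with limma-voom on oocytes, 4 without tubes 27 to 30, and 1 to 3 with a mouse left out (1 without mouse a, b, 2 or 3). The cause was not tested. The 6 list genes at an unadjusted p under 0.05 became 10 with limma-voom, 3 without WT-labelled tubes 11 to 15 (alternatives of the lists and of the spread were chosen after seeing the data), and 1 to 11 with a mouse left out: 2 without mouse a, b or 4, 3 without mouse 1, 1 without mouse d and 11 without mouse c. Of the 9 genes named as most like a GTPase, 4 remained without KO-labelled tube 10.

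Log2 fold changes near 0 changed sign. Opa1 was -0.022 with upper-quartile factors, -0.0064 without tubes 27 to 30, -0.027 without KO-labelled tube 10, -0.018 without WT-labelled tubes 11 to 15, -0.038 without 7 libraries (those 6 and tube 29 labelled Drp1_WT), and -0.051 to 0.067 without a mouse. Oma1 was 0.0025 with no filter, 0.043 without tubes 27 to 30, 0.015 without KO-labelled tube 10, and -0.074 to 0.042 without a mouse. Yme1l1 was -0.0013 without KO-labelled tube 10 and -0.016 without the 7 libraries. Slc25a46 was 0.12 without WT-labelled tubes 11 to 15, 0.062 without the 7, and -0.22 to 0.035 without a mouse; Pld6 was 0.29, 0.33 and -0.081 to 0.24 in these settings. Rhot2 was 0.060 without WT-labelled tubes 11 to 15, 0.11 without the 7, and -0.19 to 0.035 without a mouse. Trak2 was 0.017 without WT-labelled tubes 11 to 15, 0.020 without WT-labelled tube 29, 0.21 without the 7, and -0.19 to 0.056 without a mouse. Tfam was 0.025 without the 7. Prelid1 passed with limma-voom alone, at 1.28, and was 0.69 without WT-labelled tubes 11 to 15. Other values of the named genes kept their sign and side of the threshold where they were fitted; Ppargc1a could not be fitted in 2 settings, without WT-labelled tubes 11 to 15 and without the 7, as it failed the filter there, and had no adjusted p in DESeq2. With the tube set (1 to 15 or 27 to 30) as a term, 2 genes and 0 fusion genes passed, and the adjusted p of the fusion genes ran from 0.553 to 0.980. No paired analysis was possible because letters name the mice labelled Drp1_KO and numbers the others, and the labels tie no mouse of one genotype to one of the other.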

Other observations

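Ratios between members and their partners, which do not depend on library totals, were also read per mouse and per kb. Oma1 exceeded Yme1l1 by 11.6- to 17.3-fold in mice labelled Drp1_KO and by 12.02- to 19.4-fold in mice labelled Drp1_WT. Opa1 stood at 0.421 to 0.613 of Mfn1 in mice labelled Drp1_KO and at 0.415 to 0.558 in mice labelled Drp1_WT. The highest values were those of mouse d and mouse 5, both from tubes 27 to 30. Mfn1 stood at 0.268 to 0.314 of Dnm1l, the fission GTPase, in mice labelled Drp1_KO and at 0.181 to 0.522 in mice labelled Drp1_WT. The highest of these belonged to mouse 4, whose 3 oocytes all lie in tubes 11 to 15. No test was run on these ratios.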
